A study of Drosophila melanogaster with 4 samples.

Results

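The Antennapedia complex (ANT-C) is the homeotic gene cluster on chromosome 3R of Drosophila melanogaster that holds lab, pb, Dfd, Scr, ftz and Antp. All ASH1 and FSH peaks touching 3R from 2480000 to 2840000 (BDGP Release 5) were taken as its binding sites. This window of 360 kb has limits set by position, but its members and the lists were chosen with earlier results of these data known. It contained 27 of 10748 ASH1 peaks and 23 of 8824 FSH peaks, or 50 of 19572 peaks in both lists. The lists derive from ChIP-seq in S2-DRSC cells, a cultured line of embryonic origin for which the labels give no treatment or mutation, with 4 libraries in all. ASH1 chromatin was precipitated with ASH1N and ASH1C, antibodies against either end of the protein. For FSH, the labels name one library FSH-S and the other FSH-S and FSH-L, whereas the methods assign the narrower serum to FSH-L. Reads of both antibodies to a protein were merged by the authors before peaks were called against input chromatin, so there is no replicate spread, the number of reads behind a peak is unknown, and no difference between regions was tested. The cells are a single line, in which the segmental identity that homeotic genes confer in the animal cannot be observed.

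Homeotic genes encode homeodomain transcription factors that give each body segment its identity. The Polycomb group keeps them silent where they are not needed, through response elements spread over the clusters, and the Trithorax group keeps them active. ASH1, a Trithorax group histone methyltransferase of H3K36, and FSH, the fly BET protein, whose bromodomains bind acetylated histones, belong to the latter group. Within ANT-C, lab acts in the head and midgut, pb in the mouthparts, Dfd in the maxillary and mandibular segments, Scr in the labial and first thoracic segments and Antp in the thorax. The member ftz is a pair-rule segmentation gene and has no homeotic role. In the RefSeq gene table of Release 6 all 6 names were matched, and 17 protein coding genes lie between lab and Antp, pb, Dfd, Scr and ftz included. The others include 8 cuticle protein genes named Edg84A or Ccp84A between lab and pb, the maternal and early zygotic patterning genes bcd, zen and zen2, and Ama, which encodes a secreted immunoglobulin-domain protein. The microRNA genes mir-993 and mir-10 flank Dfd. Since the table belongs to another build than the peaks, only this order was used. Peaks are named by position, and none is assigned to a gene.

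ASH1 and FSH peaks mostly overlapped in ANT-C, as they did over the whole lists. An FSH peak lay over 25 of 27 ASH1 peaks, with 1 bp as the minimum (92.6%, Wilson 95% interval 76.6% to 97.9%), against a background of 82.0% over the whole ASH1 list. Of 23 FSH peaks, 22 overlapped an ASH1 peak (95.7%, interval 79.0% to 99.2%), against 92.4% over the whole FSH list. The intervals cover counting error only and treat peaks as independent. Joining overlapping peaks gave 25 sites, namely 22 with both proteins, 2 with ASH1 alone and 1 with FSH alone. The peaks without a partner were weak. ASH1 stood alone from 2758361 to 2758918 with a score of 94.1 and from 2817554 to 2818016 with a score of 81.2, and FSH from 2748705 to 2749242 with a score of 294. The score is the value written by the peak caller. It was taken to be the log10 P value multiplied by -10, because no peak scored below 50.02 and the authors' cut-off corresponds to 50. A value of 3100 was shared by 18.3% of ASH1 and 17.7% of FSH peaks. Peaks at 3100 or above are therefore counted as one top class. When at least 50% of both peaks had to overlap, 74.1% of the ASH1 peaks of ANT-C were shared, against 69.0% over the whole list, and 87.0% of the FSH peaks, against 84.0%.

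**Figure D1:**
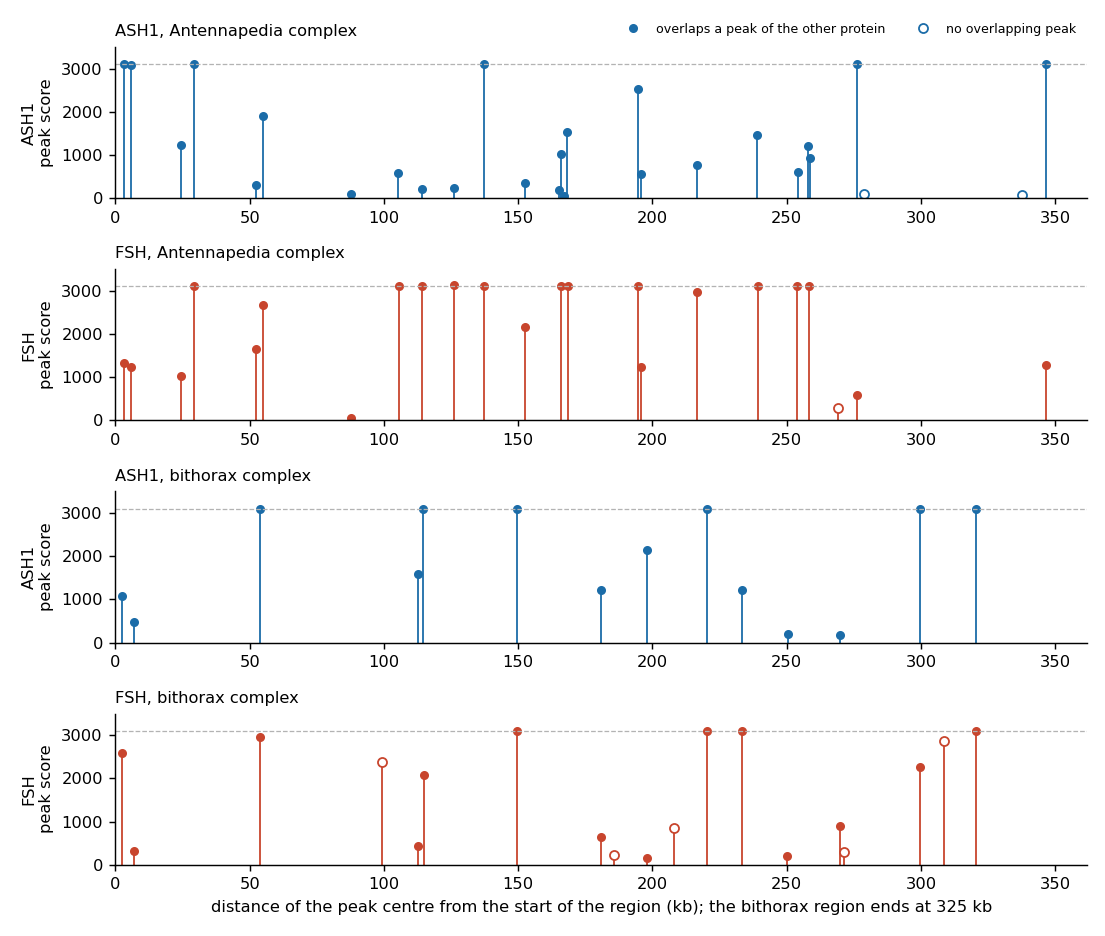
Score of each ASH1 (blue) and FSH (red) peak against the distance of its centre from the start of the region in kb, for ANT-C (upper panels) and the bithorax complex (lower panels). Filled points overlap a peak of the other protein, open points do not, and the dashed line marks 3100; in ANT-C, FSH has 11 peaks at or above the line and ASH1 has 5.

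Top scores were more frequent for FSH than for ASH1 in the complex. FSH reached the top class at 11 of 23 peaks (47.8%, interval 29.2% to 67.0%), against 18.5% of all FSH peaks. ASH1 reached it at 5 of 27 peaks (18.5%, interval 8.18% to 36.7%), against 19.3% of all ASH1 peaks. Thus the ASH1 share was close to its background, whereas the FSH share was higher than its own. The intervals treat peaks as independent, although 10 of the 11 top FSH peaks lay in 1 stretch of 154 kb, described below. The difference from the background was not tested. The median score was 2975 for FSH, compared to 699 in the whole FSH list, and 935 for ASH1, compared to 844 in the whole ASH1 list. FSH scores ranged from 52.8 to 3122 and ASH1 scores from 58.0 to 3100. Because scores of different antibodies are not on one scale, each was also expressed as its rank in its own list in percent, with tied peaks at their mean rank. The FSH peak of 3122 thereby kept its own rank of 99.3, compared to 90.4 for FSH peaks at 3100. Sites where both proteins were in the top class were counted as ties, with a difference in rank of 0. In the following account of the sites the scores are given side by side, and the order of the proteins refers to these ranks. The median rank was 80.8 for the FSH peaks and 52.5 for the ASH1 peaks of the complex.

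At the start of the region ASH1 ranked higher. At the first site ASH1 scored 3100 (2482664 to 2484018) and FSH 1326 (2482566 to 2484046). The next site, 1.2 kb further on, scored 3093 for ASH1 (2485341 to 2486149) and 1247 for FSH. The difference in rank, FSH minus ASH1, was -24.9 and -17.3 points, respectively. At 2504083 to 2504735 the ranks were nearly equal, with scores of 1238 for ASH1 and 1025 for FSH. The site that followed was one of 2 in ANT-C where both proteins were in the top class, and its peaks of 1108 bp (ASH1, 2508778 to 2509885) and 1115 bp (FSH, 2508754 to 2509868) both scored 3100.

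Beyond 22.1 kb without a peak, FSH ranked higher at the next 2 sites. From 2531965 to 2532569 FSH scored 1655 and ASH1 309, and from 2534503 to 2535077 FSH scored 2671 and ASH1 1898. The site from 2567215 to 2568149 held the lowest FSH score of ANT-C, with 88.5 for ASH1 and 52.8 for FSH. The FSH value lay just above the cut-off, and ASH1 ranked higher at this site.

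Between 2585102 and 2739179, a stretch of 154 kb delimited after its values had been seen, 10 of 13 FSH peaks were in the top class and the other 3 scored 1239, 2157 and 2975. An ASH1 peak overlapped every one of these FSH peaks. Of the 16 ASH1 peaks in the stretch 1 was in the top class, and the median score was 687. The stretch was set to begin after the first top FSH peak, which stands apart, and to end with the last one. The counts of top FSH peaks outside it, 1 of 7 before and none of 3 after, therefore follow from its limits.

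The stretch opened with 3 sites where a top FSH peak met an ASH1 peak of low score. At 2585102 to 2585970 FSH scored 3100 and ASH1 584. At 2593891 to 2594470 the scores were 3100 and 219. At 2605670 to 2606342 FSH reached 3122, its highest score in the complex, while ASH1 scored 226. The exception among these neighbours was the site from 2616984 to 2617744, where both proteins scored 3100 and the peaks were only 743 bp (FSH) and 733 bp (ASH1) long.

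Further along, FSH scored 2157 and ASH1 348 at 2632233 to 2632971. The longest peak of the complex followed, 2490 bp of FSH enrichment from 2644606 to 2647095 that scored 3100. It spanned 3 ASH1 peaks with scores of 182, 1019 and 58.0, the last being the weakest ASH1 peak of ANT-C. A gap of 0.7 kb separated it from a site at 2647752 to 2648985, with scores of 3100 for FSH and 1534 for ASH1. Together these neighbours formed the broadest block of binding in the region.

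The remaining sites of the stretch kept the same order. At 2674067 to 2674941 FSH scored 3100 and ASH1 2518, and at 2675498 to 2676094 the scores were 1239 and 558. At 2696432 to 2697028 FSH scored 2975 and ASH1 761. All of these had the higher rank for FSH. A site followed at 2718637 to 2719617 (FSH 3100, ASH1 1463), then one at 2733661 to 2734361 (FSH 3100, ASH1 612). The last FSH peak of the stretch (2737726 to 2739179, score 3100) spanned 2 ASH1 peaks of 1219 and 935. FSH ranked higher than ASH1 at 12 of the 13 shared sites of the stretch, and at the remaining 1 both scored 3100. This count follows largely from the limits of the stretch, which were set by top FSH peaks. At the 10 sites with a top FSH peak ASH1 could not rank higher, because sites with both proteins in the top class are ties.

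After this stretch, which was ended at the last top FSH peak, ASH1 ranked higher at both shared sites. At 2755920 to 2756689 ASH1 scored 3100 and FSH 584, a difference in rank of -44.2 points and the largest in favour of ASH1. ASH1 also ranked higher at the last site, where it scored 3100 (2826137 to 2827103) and FSH 1293 (2826172 to 2827072). Between them lay the 2 weak ASH1 peaks without FSH and 58.6 kb without a peak of either protein. The longest ASH1 peak of ANT-C, with 1355 bp, was at the first site.

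**Figure D2:**
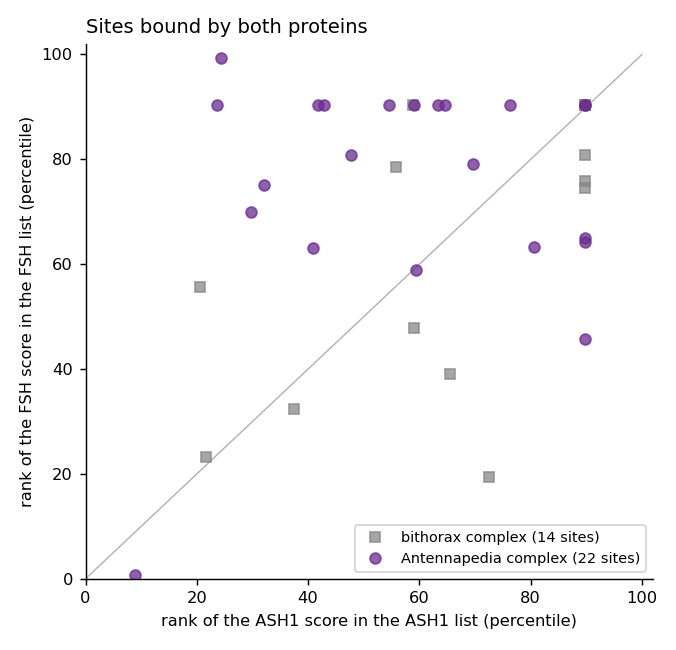
Rank of the FSH score in the FSH list against rank of the ASH1 score in the ASH1 list, both in percent, for the 22 sites of ANT-C (circles) and the 14 sites of the bithorax complex (squares) with both proteins. The line marks equal ranks; with sites of both proteins in the top class counted as ties, 14 of the 22 ANT-C sites and 4 of the 14 bithorax sites lie above it, and 2 and 3 sites are ties.

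Over all shared sites of ANT-C, FSH ranked higher than ASH1 at 14 of 22, against 36.6% of the 7903 shared sites in the genome, and lower at 6, against 54.2%. The other 2 were ties in the top class. The median difference in rank, FSH minus ASH1, was 24.0 points, compared to -4.05 in the genome and -7.62 on chromosome 3R. A top FSH peak with an ASH1 score below the list median occurred at 4 sites of 22, against 3.15% of shared sites in the genome. The opposite combination, a top ASH1 peak with FSH below its median, occurred at 1 site (5.57% in the genome), and both proteins were in the top class at 2 sites (9.22% in the genome). Scores of both proteins had a Spearman's rho of -0.09 across the 22 sites, compared to 0.45 across all 7903 shared sites and 0.53 across the 14 of the bithorax complex. These correlations are descriptions across sites of the same pooled libraries, with many ties at 3100.

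Chromosome 3R was divided into windows of 360 kb side by side with ANT-C as one of them, which gave 76 windows. In number of peaks ANT-C was ordinary, with more ASH1 peaks than 27 and fewer than 43 of the other 75 windows, and more FSH peaks than 32 and fewer than 40. Its median FSH score of 2975 was above those of all other 75 windows, which ranged from 257 to 2534 with a median of 738. Likewise, the share of top FSH peaks in the other windows was at most 42.9%. In absolute number, the 11 top FSH peaks were equalled by 3 windows and exceeded by none. For ASH1, 48 windows had a higher median score and 27 a lower one. Ordering the windows by score, rather than by number of peaks, was not planned and was chosen after the data had been seen. Windows of one chromosome arm are not replicates, so the order is a description. It depended in part on where windows were placed. In steps of 10 kb, 27 of 2754 other windows had a higher median FSH score, 12 of which overlapped ANT-C.

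**Figure D3:**
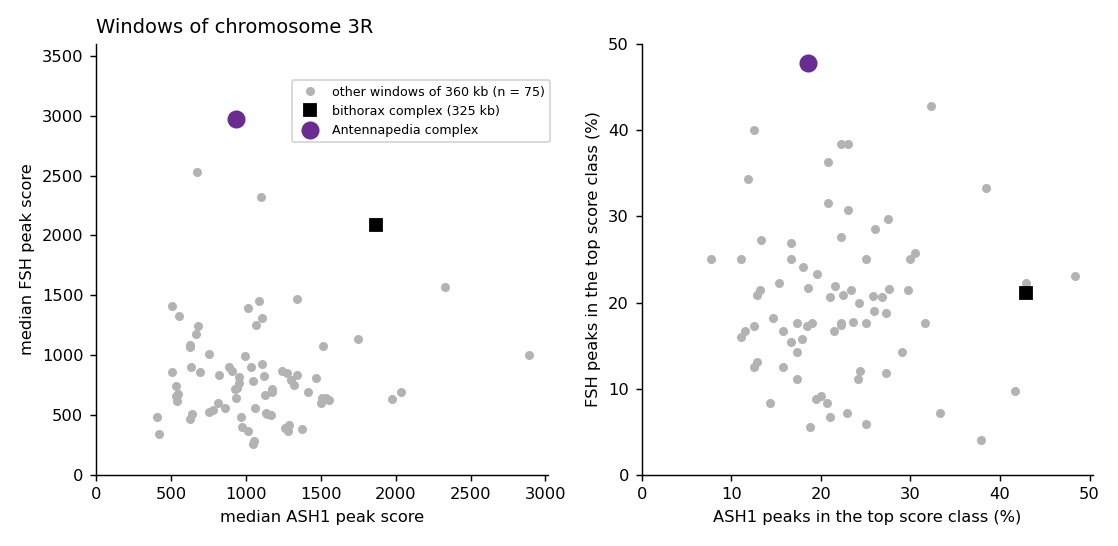
Median score (left) and share of peaks at 3100 or above in percent (right) of FSH against ASH1 for 75 windows of 360 kb on chromosome 3R (grey), ANT-C (purple circle) and the bithorax complex (black square, 325 kb). ANT-C has the highest FSH value in both panels, 2975 and 47.8%, at ASH1 values of 935 and 18.5%.

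The bithorax complex, from 12475000 to 12800000 on 3R, is the second homeotic cluster. Its genes Ubx, abd-A and Abd-B specify the posterior thorax and the abdomen. ANT-C had 7.5 ASH1 peaks per 100 kb, compared to 4.3 in the bithorax complex, and 6.4 FSH peaks, compared to 5.8. In the top class and at shared sites the balance between the proteins was different. In the bithorax complex 6 of 14 ASH1 peaks but 4 of 19 FSH peaks were in the top class, with median scores of 1866 and 2085. Of its 14 shared sites FSH ranked higher at 4, ASH1 at 7, and 3 were ties in the top class. A high FSH median was, however, common to both complexes. The median rank of all peaks was 69.0 for ASH1 and 74.5 for FSH, compared to 52.5 and 80.8 in ANT-C. Of 84 other windows of its width, 2 exceeded the bithorax complex in median FSH score. Unpartnered peaks also differed in number and score. The bithorax complex had 5 sites of FSH alone and none of ASH1 alone among 19, compared to 1 and 2 among 25 in ANT-C. Over the whole lists, 675 of 10511 sites were FSH alone and 1933 were ASH1 alone. In the bithorax complex 2 of the FSH peaks without a partner scored 2374 and 2868, whereas the highest of the 3 unpartnered peaks of ANT-C scored 294. The intervals for the share of top FSH peaks overlapped (29.2% to 67.0% in ANT-C and 8.51% to 43.3% in the bithorax complex), as did those for ASH1 (8.18% to 36.7% and 21.4% to 67.4%). The intervals treat neighbouring peaks as independent, and their overlap does not show whether the complexes differ. Differences between the complexes were not tested.

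Peaks in ANT-C were short. The median length was 625 bp for ASH1 and 743 bp for FSH, compared to 853 bp and 1000 bp in the whole lists. Of the other 75 windows, 73 had longer ASH1 peaks and 73 longer FSH peaks by median. In the top class, the median over the 11 FSH peaks was 856 bp, compared to 2090 bp for all FSH peaks of that class, and 10 of the 11 were shorter than this. The exception was the peak of 2490 bp. The 5 top ASH1 peaks had a median of 967 bp, compared to 1275 bp, and 4 were shorter than this. In the bithorax complex the medians of the top class were 878 bp for FSH and 784 bp for ASH1. Its peaks with scores below 500 were not short, with medians of 1018 bp over 3 ASH1 peaks and 748 bp over 6 FSH peaks, compared to 626 bp and 733 bp in the whole lists. As a result, the peaks of each protein covered little of ANT-C, 19.5 kb (5.43%) for ASH1 and 20.5 kb (5.70%) for FSH, although FSH scores were high. For either protein, 69 of the other 75 windows had more sequence covered. The bithorax complex was covered still less than ANT-C, 3.93% by ASH1 and 4.97% by FSH.

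**Figure D4:**
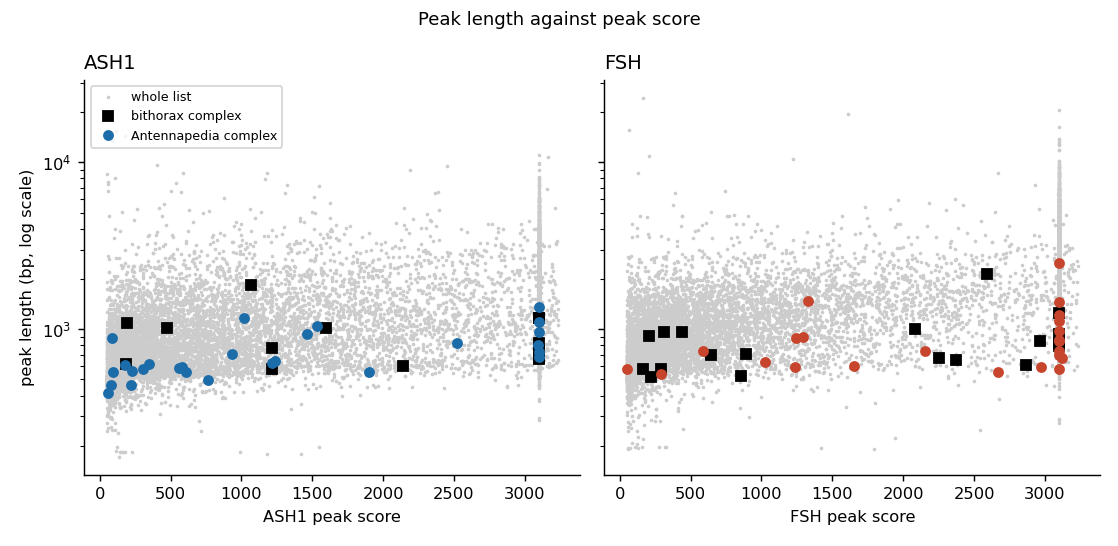
Peak length in bp (log scale) against peak score for ASH1 (left) and FSH (right), with the whole lists in grey, ANT-C in colour and the bithorax complex in black. At a score of 3100 the FSH peaks of ANT-C, with a median of 856 bp, lie in the lower part of the grey column, whose median is 2090 bp.

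Neighbouring sites were also mostly far apart, although the density of peaks was near that of the chromosome. ANT-C had 7.5 ASH1 and 6.4 FSH peaks per 100 kb, compared to 8.5 and 6.8 on chromosome 3R. The median distance between neighbouring sites of either protein was 10.9 kb in ANT-C and 12.1 kb in the bithorax complex, compared to 4.02 kb on chromosome 3R. Distances over 10 kb made up 13 of 24 in ANT-C and 12 of 18 in the bithorax complex, against 27.0% of all 2281 distances on 3R. The widest in ANT-C was the 58.6 kb between the unpartnered ASH1 peaks, and 74 distances on 3R were at least as long. For ASH1 peaks alone, 1 of the other 75 windows had a wider median distance than the 11.0 kb of ANT-C, and for FSH peaks alone, with 11.4 kb, 2 did. Only 2 pairs of neighbouring sites were less than 1 kb apart, those beginning at 2644606 and 2674067, with gaps of 0.7 and 0.6 kb. Sites with several ASH1 peaks made up 2 of the 22 shared sites, a share similar to the 9.41% of shared sites in the genome.

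**Figure D5:**
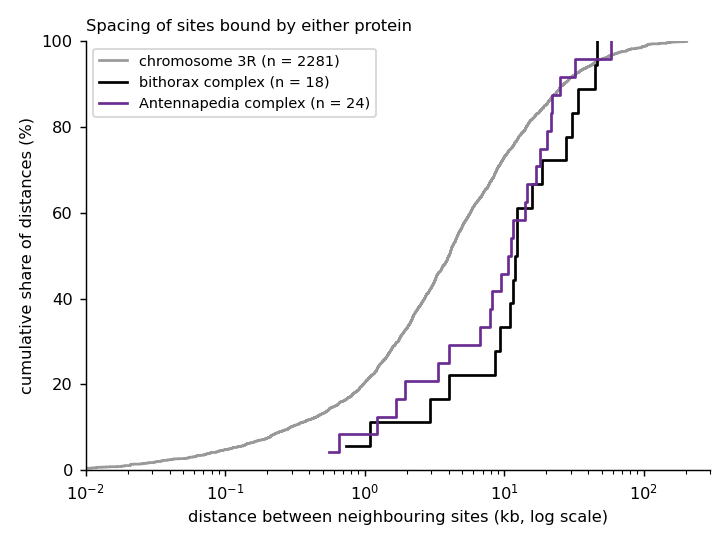
Cumulative share of the distances between neighbouring sites of ASH1 or FSH, in kb on a log scale, for ANT-C (purple, 24 distances), the bithorax complex (black, 18) and chromosome 3R (grey, 2281). Both complexes lie to the right of the chromosome, with medians of 10.9 kb and 12.1 kb against 4.02 kb.

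At shared sites the peaks of both proteins were closely aligned. Centres of the called intervals were within 100 bp at 19 of 22 sites in ANT-C, against 69.1% in the genome, with a median distance of 22.5 bp, compared to 52.0 bp. In the bithorax complex they were within 100 bp at 12 of 14 sites, with a median distance of 32.5 bp. The largest distance, 206 bp, was at the site with the lowest FSH score (2567215 to 2568149), and the others above 100 bp were 143 bp at 2585102 and 110 bp at 2647752. FSH peaks were longer than the ASH1 peaks they overlapped at 19 of 22 sites, against 66.0% of shared sites in the genome and 9 of 14 in the bithorax complex. The median ratio of lengths was 1.09, compared to 1.06 in the genome. The shorter length of the peaks in ANT-C was not taken into account in these distances.

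The edges of the region were set by position. On the side of the lower coordinates the nearest peaks outside were 7.0 kb away for ASH1 (2472258 to 2472993, score 3100) and 6.9 kb away for FSH (score 2742), and the first ones inside were 2.7 and 2.6 kb from the edge. On the other side the nearest peaks outside were 22.8 kb away for both proteins, with scores of 2613 and 2716. The 180 kb before the region were sparsely bound, with 4 ASH1 and 2 FSH peaks. The 180 kb after it held 27 ASH1 and 20 FSH peaks, with a median FSH score of 1129 and a median distance between FSH peaks of 2.79 kb. Hence, ANT-C lay between a sparsely and a densely bound flank, and its FSH median of 2975 was above those of both, the first being 1741.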

How the data were processed

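Libraries were grouped by protein. The authors aligned reads of 36 bases to BDGP Release 5 with Bowtie 0.12.7 (up to 20 matches allowed, 1 reported), merged alignments with SAMtools 0.1.9 and called peaks with MACS 1.4.0 (P value below 1e-05). The deposited scores of both lists are given side by side but compared between proteins only as ranks within each list or as shares of the top class, and sites with both proteins in that class are ties. Deposited starts count from 0 and are printed from 1. Depth per peak is unknown, since the lists hold no read counts.

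Overlap needed 1 bp, and overlapping peaks were joined into sites. Calculations used Python 3.11.15, numpy 2.4.6, pandas 2.3.3 and scipy 1.17.1, were tested on simulated lists, and overlap counts of the whole lists equalled those of BEDTools 2.31.1. Windows were counted outward from ANT-C up to the last peak of 3R. All peaks touching the region are reported. The members and lists were chosen with earlier results of these data known. No test was made, because pooled lists leave no replicates. Repeats that match several places can add to or take from a peak. Sequences of the sites were not used here, as they need a genome of Release 5.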

Additional observations from a re-analysis of the deposited data

How the results depend on the processing

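Of 44 values for 12 results under alternatives, 40 stayed within the interval of the reported value or within 1.5 times of it. These include the numbers of peaks with the region narrowed or widened by 10 kb and the median scores with the region widened, each also with a score minimum of 100 and with peaks less than 1 kb apart merged. The share of ASH1 peaks overlapping FSH moved from 92.6% to 74.1% when 50% of both peaks had to overlap, and to 100% with a score minimum of 100 in both lists, which removes both unpartnered ASH1 peaks. The order of windows by median score was itself among the results chosen after seeing the data. The share of windows with a lower median ASH1 score moved from 36% to 56.0% with that minimum and to 54.3% over windows on 5 chromosome arms. For the median FSH score the corresponding share was 100% in the main setting and 98.7% to 100% in the alternatives. Any share from 66.7% up would have counted as within 1.5 times, so this criterion was wide. Leaving out a library was not possible, because each list pools both antibodies. No paired analysis was possible because the lists hold no replicates. Scores at 3100 have no order, which limits comparisons among the strongest peaks.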

Other observations

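Over windows of 360 kb on the 5 euchromatic arms, 1 of the 326 others had a higher median FSH score than ANT-C. It lay on 2R, its median was 3100, and it held 36 FSH peaks, of which 55.6% were in the top class. On 3R, windows in steps of 10 kb that had a higher median FSH score than ANT-C without overlapping it held at most 13 FSH peaks each, and those with a higher share of top FSH peaks at most 14. Among windows of the width of the bithorax complex, that complex was exceeded by 5 of 84 others in median ASH1 score and by 2 in median FSH score, while 76 had more ASH1 peaks.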
